A study of Homo sapiens with 4 samples.

Results

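The genes described here encode the RNA polymerase III (Pol III) machinery. They were taken from the table of gene expression by name, as every row whose symbol begins with POLR3 or GTF3, the 5 numbered SNAPC genes, and BRF1, BRF2, BDP1, MAF1 and CRCP. This rule uses no measured value. It found 27 genes among 24934 rows, lying on 16 chromosomes: 11 genes of the polymerase itself, 1 of TFIIIA, 3 of TFIIIB, 6 of TFIIIC, 5 of SNAPc and the repressor gene MAF1. The cells were HEK-293, an established line derived from human embryonic kidney, transfected with 10 nM of small interfering RNA (siRNA) in a lipid reagent and collected 48 h later. The 3 siRNA libraries came from cells given si4 or si5, which both target ZSCAN5A, or si1, which targets ZSCAN5B, and the control library came from cells given a scrambled siRNA. Each treatment had 1 library, so no value has a replicate of its own condition, and si4 and si5 are different reagents against the same gene.

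Pol III makes short noncoding RNAs, among them transfer RNAs, 5S ribosomal RNA, U6 spliceosomal RNA and the RNA parts of RNase P and RNase MRP. At most of its genes TFIIIC recognises promoter elements inside the transcribed sequence (the A and B boxes) and recruits TFIIIB, which places the polymerase. TFIIIA is needed first at 5S genes, and SNAPc takes the place of TFIIIC at genes with upstream promoters such as U6 and RMRP. MAF1 represses the polymerase. The ZSCAN5 proteins are zinc finger proteins studied here for their binding at Pol III genes and at other TFIIIC sites, and the comparison asks whether the machinery's own messenger RNAs differed after the siRNAs.

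The siRNA target sequences are shown because their seed matches are used below. Each is written as the messenger RNA strand, and capitals mark the 7 bases that pair with bases 2 to 8 of the guide strand.
si4: cgagaagaggtttACGTGTAa
si5: aagctagtcatccACAAGAGa
si1: acgtgtgcaataaATCATTTa
On GRCh37 the si4 target lies at chr19:56733332-56733352 and the si5 target at chr19:56733307-56733327, both in ZSCAN5A. For si1 the target is at chr19:56701591-56701611 in ZSCAN5B, and all 3 are on the minus strand.

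Levels are FPKM, the fragments of a transcript divided by its length in kilobases and by the size of the library. At the lowest levels FPKM moves in steps of 1 fragment, and these steps put the depth of si4, si5 and si1 at 1.09, 1.54 and 1.02 times that of the control. The study's methods state a narrow range of reads per sample, which the value for si5 does not match. The fragment numbers and counting intervals below rest on this estimate. ZSCAN5A stood at 0.730 and 0.713 FPKM with si4 and si5, at 2.53 with si1 and at 2.42 in the control. ZSCAN5B stood at 0.0331, 0.0663, 0.0948 and 0.0903 FPKM in the same order. It was not lower in its own library than in the control, so si1 is called the library labelled ZSCAN5B knockdown. Under 0.1 FPKM in every library, ZSCAN5B rests on too few fragments to check the knockdown here. The study's quantitative PCR and protein blots showed less ZSCAN5B after si1. By that PCR the related gene ZSCAN5D was also lower with each of these siRNAs, least so with si1, and ZSCAN5B was higher with si4. Of 7 genes chosen as HEK-293 markers, 6 reached 1 FPKM in every library, and the 7 together summed to 407 to 499 FPKM in the siRNA libraries and 430 in the control. PAX2, the exception, stood at 0.584 to 0.615 FPKM with the siRNAs and 1.16 in the control. Most of the sum was VIM, with 359, 270 and 298 FPKM for si4, si5 and si1 beside 295. LHX1 had 3.29, 3.31 and 3.28 FPKM beside 4.17. PAX2 and LHX1 were the 2 markers below the control in every siRNA library, while 2 were above it and 3 were mixed. Markers of the trophoblast line BeWo, which the study also used, had rows for 6 of 7 genes and summed to 3.56 to 5.73 FPKM in the siRNA libraries and 2.93 in the control. Nearly all of that was CGA, at 3.48, 4.85 and 5.66 FPKM with si4, si5 and si1 beside 2.82 in the control. PSG1 was listed at 0 in every library. Markers of leukocytes, hepatocytes and fibroblasts summed to 1.41 to 2.07 FPKM with the siRNAs and 2.36 in the control. The part of these marker differences in the values below was not tested.

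All 27 genes were at 1 FPKM or above in every library, from 3.59 FPKM for SNAPC2 in the control to 68.1 FPKM for POLR3K with si4. By the depth estimate these values rest on about 293 to 15494 fragments. No gene of the machinery differed from the control by more than 1.5-fold, the limit the study used, in any of the comparisons. By that limit 3.79% of 12993 rows differed between the mean of si4 and si5 and the control, 6.36% of rows with si4 singly, 3.54% with si5 singly and 4.01% of 12921 rows with si1. The ratios of single siRNA libraries to the control ran from 0.857 to 1.28. At a lower limit, 25% above the control or the same factor below it, 1 gene (BDP1) passed with the mean of si4 and si5, beside 18.5% of all rows, and 2 (GTF3A and GTF3C6) passed with si1, beside 19.5%.

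**Figure D1:**
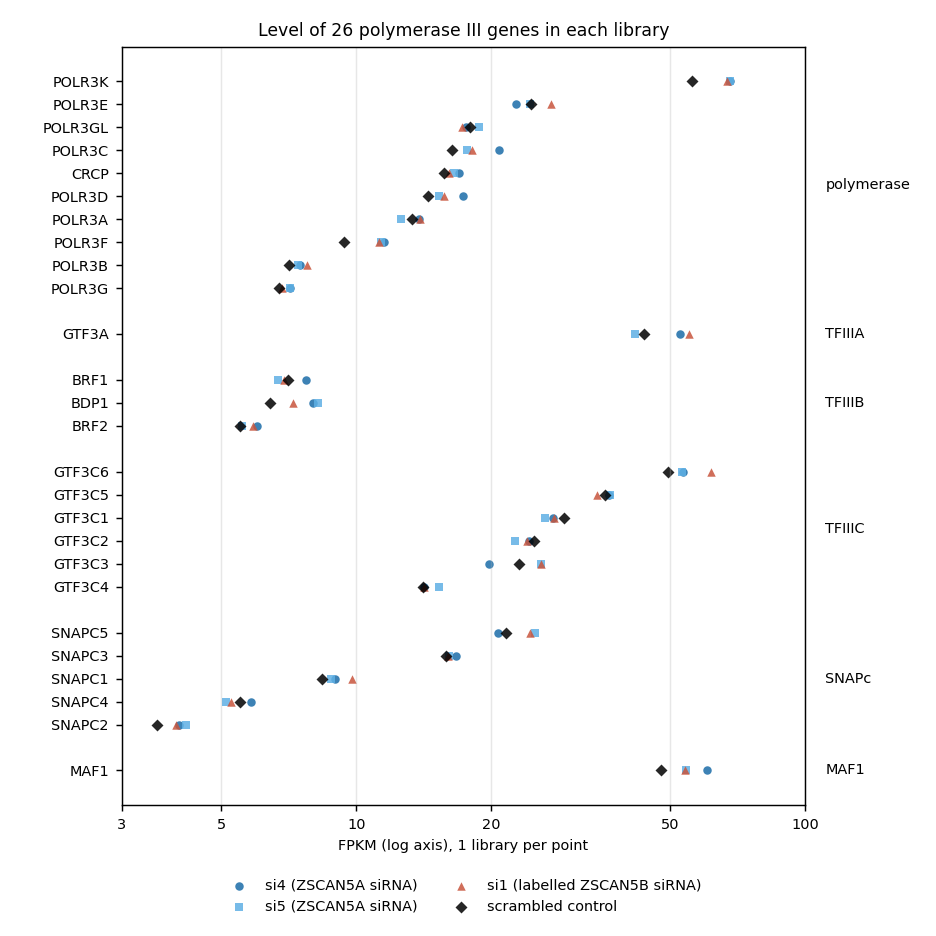
Level of 26 of the 27 genes in FPKM on a log axis, with 1 point per library and the genes grouped by complex. The 4 points of a gene lie close together beside the distance between genes, which span 3.59 to 68.1 FPKM.

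Within the 1.5-fold limit the genes were more often above the control than below it. In 16 of 27 genes all 3 siRNA libraries were above the control, a pattern seen in 30.1% of 12983 rows. In 2 genes, GTF3C1 and GTF3C2, all 3 were below it, a pattern seen in 36.2% of rows. The other 9 genes were mixed, as were 33.7% of rows. These counts include differences within counting error. The counting interval lay above the control in 11, 12 and 14 of the 27 genes with si4, si5 and si1, and below it in 3, 5 and 1. The share of all rows with such intervals was not computed. All 3 ratios share the same control library, so an error in that library moves them together. The median log2 ratio to the control was 0.08 with the mean of si4 and si5 and 0.14 with si1, where the medians of all rows were -0.02 and -0.01. Once the median log2 ratio of genes of like transcript length and GC content was subtracted, the 2 medians were 0.14 and 0.11. In bulk RNA, fewer cells of a kind and less RNA per cell cannot be told apart.

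A test of the ZSCAN5A comparison, in which the spread between si4 and si5 stood in for the missing control replicate, called no gene of the machinery. In limma on log2(FPKM + 1), 0 of 27 genes had an adjusted p under 0.05, beside 10 of 13044 rows (0.0767%). At an unadjusted p under 0.05 there were 2 genes, BDP1 and POLR3K, or 7.41%, beside 12.4% of all rows. The lowest adjusted p in limma was 0.393, for BDP1, whose log2 difference on that scale was 0.30 with a standard error of 0.10.

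**Figure D2:**
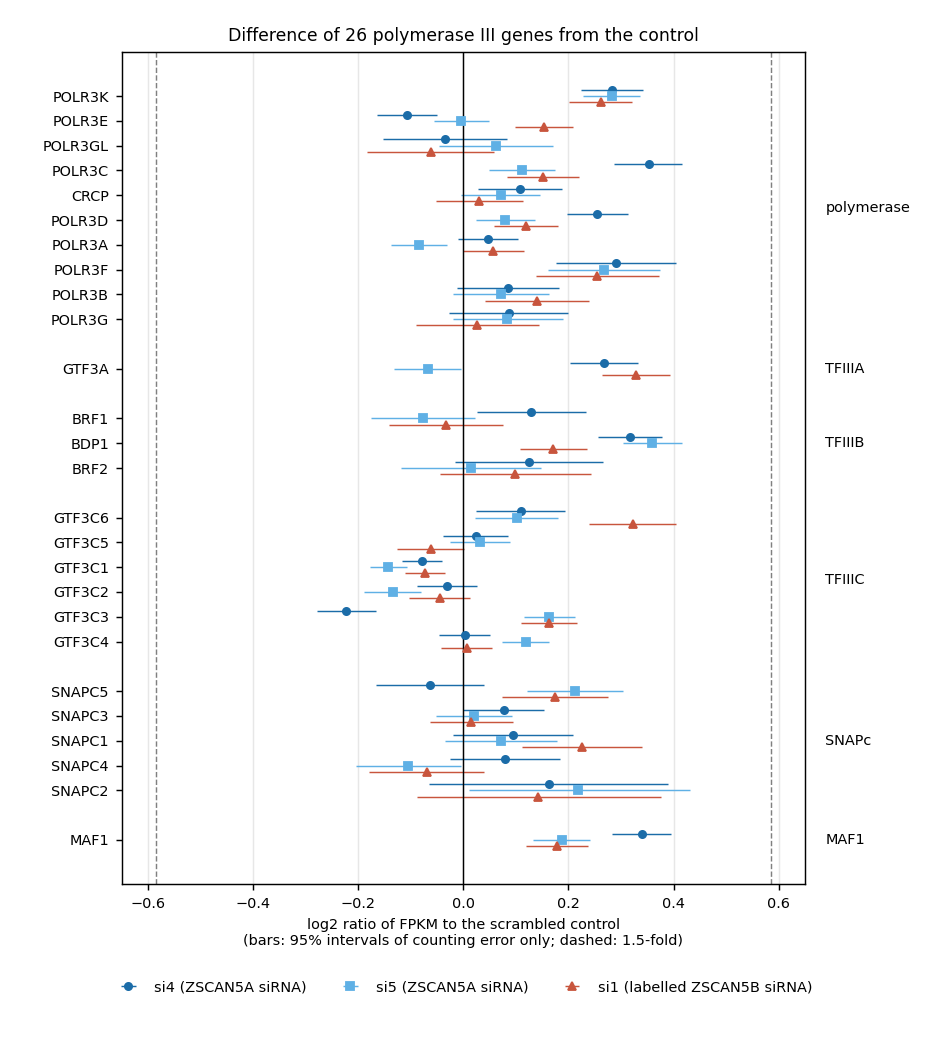
Log2 ratio of FPKM to the scrambled control for 26 of the genes and each siRNA library, with 95% intervals that cover counting error only and dashed lines at 1.5-fold. No point reaches a dashed line, POLR3K, POLR3F, BDP1 and MAF1 lie to the right of 0 in all 3 libraries, and GTF3C3 and SNAPC5 have si4 apart from the other 2.

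Among the polymerase genes, POLR3A and POLR3B encode the catalytic pair of large subunits. POLR3A (chr10:79734907-79789298 on GRCh37, 31 exons) stood at 13.8 FPKM with si4, 12.6 with si5 and 13.9 with si1, beside 13.3 in the control. The siRNA libraries lay on both sides of the control, and si5 was the lowest. POLR3B stood at 7.49, 7.42, 7.78 and 7.06 FPKM in that order of libraries, so the control was the lowest by a small margin. The POLR3A level was 1.69 to 1.89 times that of POLR3B in the 4 libraries.

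POLR3C, POLR3F and POLR3G encode the trimer that takes part in transcription initiation, with POLR3GL encoding an alternative form of the POLR3G subunit. For POLR3C, si4 stood at 20.9 FPKM, si5 at 17.6, si1 at 18.1 and the control at 16.3. The POLR3C counting intervals of the log2 ratio were 0.29 to 0.42 for si4 and 0.05 to 0.17 for si5, so the 2 ZSCAN5A siRNAs differed beyond counting error. POLR3F stood at 11.5, 11.3 and 11.2 FPKM in the si4, si5 and si1 libraries and 9.41 in the control, log2 ratios of 0.29, 0.27 and 0.25. The siRNA libraries of POLR3F lay close together and all above the control. POLR3G had 7.13, 7.11 and 6.84 FPKM with the siRNAs and 6.71 in the control. POLR3GL had 17.5, 18.7 and 17.2 FPKM with the siRNAs and 17.9 in the control, and its siRNA libraries overlapped the control. POLR3GL was the more abundant form in every library, at 2.46 to 2.67 times the level of POLR3G.

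POLR3D and POLR3E encode a pair of subunits that resembles TFIIF of polymerase II. POLR3D was highest with si4, at 17.3 FPKM, with 15.3 for si5, 15.7 for si1 and 14.5 in the control. POLR3E had 22.7 FPKM with si4, 24.4 with si5 and 27.2 with si1, beside 24.5 in the control, so si4 was the lowest and si1 the highest library.

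POLR3K encodes a small subunit with a role in termination and RNA cleavage, and it was the most abundant of the 27 messenger RNAs in the control. Its row spans chr16:96979-103632, and the annotated transcript has 3 exons and 1372 bases. POLR3K stood at 68.1 FPKM with si4, 68.1 with si5 and 67.2 with si1, beside 56.0 in the control. The siRNA libraries lay close together and all above the control, with log2 ratios of 0.28, 0.28 and 0.26. Its level was 7.93 times that of POLR3B in the control and 8.63 to 9.18 times in the siRNA libraries. CRCP encodes a subunit of the stalk of the enzyme. It was near the control, with 16.9, 16.5 and 16.1 FPKM in the si4, si5 and si1 libraries beside 15.7.

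Over the 11 polymerase genes the median log2 ratio was 0.09 with the mean of si4 and si5 and 0.14 with si1, or 0.18 and 0.13 after the subtraction for length and GC content. In 8 of them every siRNA library was above the control, and in 0 every siRNA library was below it. The remaining 3 were POLR3A, POLR3E and POLR3GL.

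GTF3A encodes TFIIIA, the 5S gene factor, in the row chr13:27998681-28009846. It stood at 52.7 FPKM with si4, 41.8 with si5 and 55.0 with si1, beside 43.8 in the control. With si1 its log2 ratio was 0.33, with a counting interval of 0.26 to 0.39, the highest of the 27 genes in that library. The libraries si4 and si1 were above the control and si5 was below it, so the siRNAs against ZSCAN5A fell on opposite sides.

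In TFIIIB, BRF1 serves genes with internal promoters, BRF2 serves the upstream promoters of U6-like genes, and BDP1 is common to both. BDP1, with 39 exons in chr5:70751442-70863649, showed the highest mean ratio of the 27 genes over si4 and si5. It stood at 7.996 and 8.24 FPKM with si4 and si5 and 7.23 with si1, beside 6.42 in the control. Its log2 ratio to the control was 0.32 with si4 (counting interval 0.26 to 0.38), 0.36 with si5 (0.30 to 0.42) and 0.17 with si1 (0.11 to 0.23). BRF1 had 7.72 FPKM with si4, 6.69 with si5 and 6.90 with si1, beside 7.06 in the control. BRF2 had 6.003, 5.56, 5.90 and 5.51 FPKM in that order, and each of its counting intervals against the control included 0. BRF1 stood above BRF2 in every library, by 1.17 to 1.29 times. The median log2 ratio of the 3 TFIIIB genes was 0.07 with the ZSCAN5A siRNAs and 0.10 with si1, or 0.16 and 0.10 after the length and GC subtraction. TBP, the subunit TFIIIB shares with factors of the other polymerases, had 18.1, 16.6 and 16.9 FPKM with the siRNAs and 16.5 in the control.

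The TFIIIC medians were 0.01 with the mean of si4 and si5 and -0.02 with si1, lower than those of the polymerase, TFIIIB and SNAPc. With length and GC content subtracted they were 0.02 and 0.10. The sign with si1 was then turned, and TFIIIC was no longer the lowest there, since SNAPc stood at 0.084. GTF3C1, its largest subunit and part of the B box binding module, lies in chr16:27471934-27561251. It stood at 27.5, 26.3 and 27.6 FPKM with si4, si5 and si1 and 29.1 in the control. Every counting interval of GTF3C1 lay below 0, with log2 ratios of -0.08, -0.14 and -0.07. GTF3C2, of the same module, had 24.3, 22.6 and 24.1 FPKM beside 24.8 in the control. These are the 2 genes of the machinery with all siRNA libraries below the control. After that subtraction both turned positive, to 0.18 and 0.03 with the ZSCAN5A siRNAs and to 0.18 and 0.04 with si1.

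GTF3C3 and GTF3C5 belong with GTF3C6 to the A box module, which also contacts TFIIIB, and GTF3C4 is the remaining subunit. GTF3C3 stood at 19.8 FPKM with si4, 25.8 with si5 and 25.8 with si1, beside 23.1 in the control. This was the widest difference between si4 and si5 among the 27 genes, -0.39 on the log2 scale, with si4 below and the others above the control. GTF3C4 had 14.1, 15.3 and 14.2 FPKM with the siRNAs and 14.1 in the control. GTF3C5 had 36.5, 36.7 and 34.4 FPKM beside 35.9 in the control. GTF3C6 stood at 53.4, 53.1 and 61.9 FPKM beside 49.5, so si1 was the library apart. Its log2 ratio with si1 was 0.32, with a counting interval of 0.24 to 0.41, and with si4 it was 0.11, with an interval of 0.02 to 0.19. GTF3C6 has the shortest annotated transcript of the 27 genes, 788 bases.

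In SNAPc, SNAPC4 is the large subunit that binds DNA through Myb repeats, SNAPC1 and SNAPC3 complete the core, and SNAPC2 and SNAPC5 are accessory subunits. SNAPC4 had 5.82 FPKM with si4, 5.13 with si5 and 5.25 with si1, beside 5.51 in the control. SNAPC1 had 8.94, 8.80 and 9.80 FPKM with the siRNAs beside 8.38, with si1 the highest. SNAPC3 had 16.7, 16.1 and 16.02 FPKM beside 15.8 in the control, and all of its counting intervals included 0. SNAPC2, the least abundant of the 27 messenger RNAs in the control, had 4.02, 4.17 and 3.96 FPKM beside 3.59. The control of SNAPC2 rests on about 293 fragments, and its si4 interval of -0.06 to 0.39 included 0. SNAPC5 had 20.7 FPKM with si4, 24.98 with si5 and 24.3 with si1, beside 21.6 in the control, so si4 lay apart from the others as it did for GTF3C3. Over the 5 SNAPc genes the median log2 ratio was 0.08 with the ZSCAN5A siRNAs and 0.14 with si1, and these medians were 0.049 and 0.084 after the length and GC subtraction.

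MAF1 (chr8:145159305-145162515) was among the 3 most abundant of these messenger RNAs in the control, after POLR3K and GTF3C6. It stood at 60.4 FPKM with si4, 54.3 with si5 and 54.0 with si1, beside 47.7 in the control. All siRNA libraries were above the control, with log2 ratios of 0.34, 0.19 and 0.18, and every counting interval lay above 0. The repressor gene and 8 of the 11 polymerase genes were thus above the same control library.

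Across the complexes, the 10 genes of TFIIIA, TFIIIB and TFIIIC had median log2 ratios of 0.05 with both the ZSCAN5A siRNAs and si1, between those of TFIIIC alone and those of the polymerase. The order of the 27 levels was nearly the same in every library. The lowest Spearman correlation of levels between any 2 libraries was 0.976 over the 27 genes, and no gene moved by more than 5 ranks. These libraries share the same reference transcripts and lengths, so the correlation is a description only.

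The difference between the 2 ZSCAN5A siRNAs was of the same order as their difference from the control. In 14 of 27 genes (51.9%) the log2 difference between si4 and si5 was wider than that between their mean and the control, as it was in 41.7% of all rows. The widest differences after GTF3C3 were those of GTF3A at 0.34, SNAPC5 at -0.27 and POLR3C at 0.24. By the same 25% limit si4 and si5 differed in 2 of 27 genes, GTF3C3 and GTF3A, beside 11.9% of all rows. POLR3K, POLR3F, POLR3G and BDP1 were among those with close values, with log2 differences of 0.00, 0.02, 0.00 and -0.04.

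**Figure D3:**
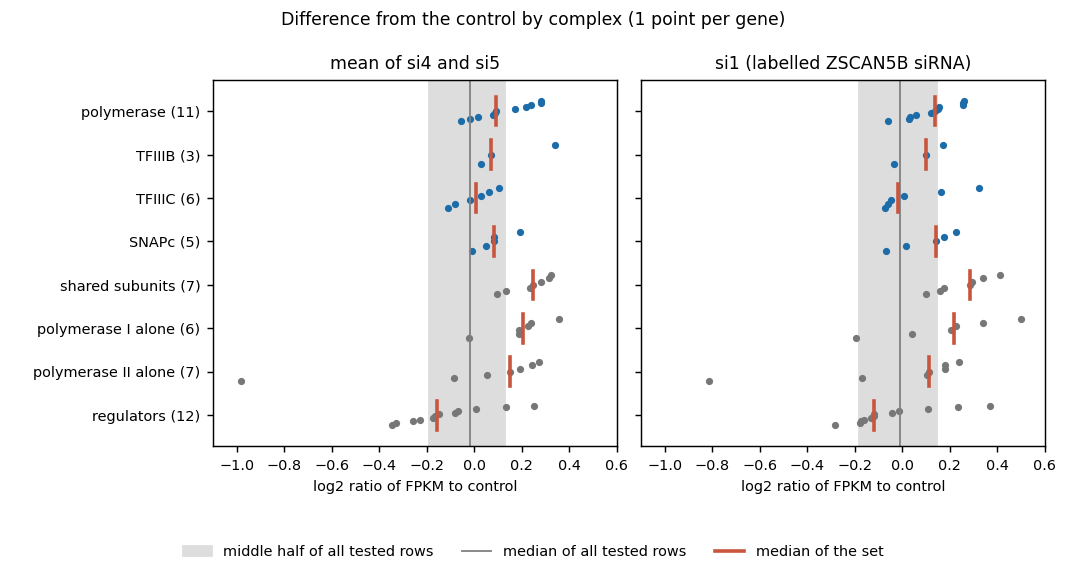
Log2 ratio of FPKM to the control for each gene (points) by complex and for comparison sets, with the mean of si4 and si5 on the left and si1 on the right. Red bars are set medians, the grey band is the middle 50% of all tested rows, and POLR2A is the point far to the left.

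Several subunits are not named as Pol III genes because the enzyme shares them with polymerase I or with both other polymerases. All 7 of these shared subunit genes were above the control in every siRNA library. Their median log2 ratio was 0.25 with the mean of si4 and si5 and 0.29 with si1. When ratios of genes of like length and GC content were subtracted, these medians were 0.09 and 0.17. POLR2F, for example, had 34.0, 36.2 and 37.4 FPKM with the siRNAs and 28.1 in the control. POLR2L had 54.3, 54.9 and 51.3 FPKM beside 46.0.

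The 6 genes of polymerase I alone had medians of 0.21 and 0.22, and the 7 of polymerase II alone had medians of 0.15 and 0.11. After the length and GC subtraction the medians for polymerase I were 0.29 and 0.18. Those for polymerase II were 0.04 and -0.01, the last with its sign turned. One of these genes passed the 1.5-fold limit. POLR2A, the largest subunit of polymerase II, stood at 14.03 FPKM with si4, 14.9 with si5 and 16.2 with si1, beside 28.5 in the control. Its level was 2.14 times that of its Pol III counterpart POLR3A in the control and 1.02 to 1.18 times in the siRNA libraries. POLR3A itself stood at 12.6 to 13.9 FPKM in the siRNA libraries beside 13.3, so it is the POLR2A level that moved this ratio.

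Of 12 regulators of Pol III chosen as a list, none differed by more than 1.5-fold, either with si1 or with si4 and si5 averaged. Their median log2 ratios were -0.16 with the ZSCAN5A siRNAs and -0.12 with si1, below the medians of all rows, and after the length and GC subtraction they were -0.10 and -0.072. CSNK2B, the regulatory subunit of casein kinase 2, had 80.4, 84.6 and 86.3 FPKM with the siRNAs and 105 in the control. PPP4C, a phosphatase that acts on MAF1, had 147, 138 and 141 FPKM beside 120. MYC, an activator of Pol III, had 20.4, 16.8 and 25.2 FPKM beside 19.5. MAPK8, a kinase upstream of Pol III factors, had 8.70 FPKM with si4 but 16.6 with si5 and 14.5 with si1, beside 15.9, and so passed the limit with si4 singly. Of 6 partner factors, 0 passed with the mean of si4 and si5 or with si1. NFIC had 2.82, 3.02 and 3.21 FPKM beside 4.31, and with si4 singly it was past the limit, at a log2 ratio of -0.61. SSB, the La protein that binds the ends of new Pol III transcripts, had 184, 156 and 203 FPKM beside 152.

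The libraries were made from poly(A)-selected RNA, which most Pol III transcripts escape. RMRP and RPPH1 alone had values above 0 in short rows of their own, 268 and 341 bases. At that size these values rest on few fragments, and no counting interval was computed for them. RMRP, the RNA of RNase MRP, stood at 6.83 FPKM with si4, 5.15 with si5 and 6.36 with si1, beside 2.24 in the control. All siRNA libraries were above the control, with a log2 ratio of 1.42 for the mean of si4 and si5 and 1.51 for si1. The study reported RMRP as up-regulated after both knockdowns, by RNA-seq and by quantitative PCR. Short rows as a class were also above the control, but by less, with median log2 ratios of 0.12 and 0.13 in the shortest class, as given below. RPPH1, the RNA of RNase P, had 1.63, 1.48 and 1.88 FPKM beside 1.66, so its libraries overlapped the control. Both genes use SNAPc, whose own genes had the small ratios given above. RNY4, RNY5 and the 4 vault RNA rows were listed at 0 in every library. The row for BCYRN1 spans 518928 bases of chromosome X, so its 163 to 238 FPKM are not a value of the short RNA. Other Pol III transcripts on the list had no row.

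Transcript length moved with the ratios over the whole table. Rows were put into 5 classes of equal size by annotated length. For si4 and si5 averaged, the median log2 ratio of all rows ran from 0.12 in the shortest class, 173 to 1770 bases, to -0.12 in the longest, 5791 to 34626 bases. With si1 these medians were 0.13 and -0.11. Among the 27 genes the medians from the shortest to the longest class were 0.11, 0.08, 0.05, 0.08 and 0.02 with the ZSCAN5A siRNAs. The median of the 7 genes in the shortest class was thus near that of all short rows, and in each longer class the median was above that of all rows. Single genes differed, as POLR3E at -0.05 and GTF3C2 at -0.08 were below the median of their class, -0.03. With si1 the median of the 7 shortest was 0.18, beside 0.13 for all rows of that class. BDP1 has the longest annotated transcript of the 27, 11037 bases, and after the ratios of genes of like length and GC content were subtracted its log2 ratio was 0.39 with si4 and si5 averaged. With that subtraction 16 of 27 genes were again above the control in all siRNA libraries, beside 31% of rows, and 1 was below in all, beside 31.5%. Of these 16, 12 were the genes found without it. GTF3C6, POLR3G, SNAPC1 and SNAPC3 were lost, and BRF1, GTF3C1, POLR3A and SNAPC4 were gained.

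**Figure D4:**
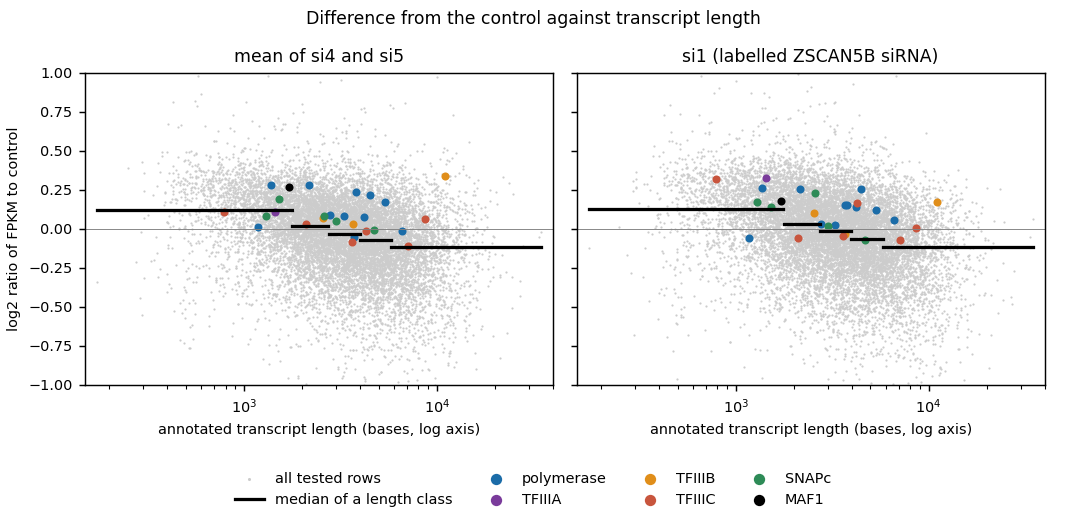
Log2 ratio of FPKM to the control against annotated transcript length on a log axis, for all tested rows (grey) and the 27 genes (colored by complex). Black bars are the medians of 5 length classes of the rows, which run from 0.12 to -0.12 with the mean of si4 and si5, and 31 rows on the left and 46 on the right lie outside the plotted range.

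Seed matches were searched in the 3′ untranslated regions, since an siRNA can lower messenger RNAs that match its seed. For si4, 4 of 27 genes (14.8%) held the 7-base match, beside 3.37% of 12004 expressed genes. The sites are shown on the transcript strand with the match in capitals, at chr5:70862247-70862267, chr2:197629027-197629047, chr9:135569687-135569707 and chr16:22345808-22345828 of GRCh37, in the order given.
BDP1: tttgattttttatACGTGTAa
GTF3C3: aatgttgaaatggACGTGTAa
GTF3C4: gtaggtgctcatgACGTGTAg
POLR3E: tgggctcagcgttACGTGTAt
The sites of GTF3C4 and POLR3E lie beyond the ends of those genes' rows in the expression table. Outside the seed these sites had little in common with the si4 target, with 8 to 10 mismatches over the 21 bases. GTF3C3 and POLR3E had their lowest level of the 4 libraries with si4, at 19.8 and 22.7 FPKM. BDP1 and GTF3C4 did not, with 7.996 FPKM beside 6.42 in the control for BDP1 and 14.1 beside 14.1 for GTF3C4. The shares of genes with a match were not adjusted for the length of the untranslated regions. Whether a seed match bore on any of these levels was not tested. For si5, 3 genes (11.1%) held the match, BRF2, CRCP and POLR3A, beside 12.0% of expressed genes. With si5 POLR3A was below the control, at 12.6 beside 13.3 FPKM, while BRF2 and CRCP were above it. For si1, 5 genes (18.5%) held it, GTF3A, POLR3C, POLR3F, POLR3GL and SNAPC3, beside 23.4%. Of these, GTF3A, POLR3C, POLR3F and SNAPC3 were above the control with si1 and POLR3GL was below it, and the counting intervals of SNAPC3 and POLR3GL included 0. The POLR3C site lies beyond the end of that gene's row in the expression table. No gene came within 4 mismatches of a whole siRNA target, and the fewest were 7 for si4, 5 for si5 in POLR3D and 5 for si1 in POLR3K.

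The promoters of 20 of the 27 genes were in the RefSeq table of GRCh38.p14 used here, as windows of 300 bases that run from upstream of the gene's start into the transcript. The E box CACGTG, the sequence bound by MYC and related factors, was found in 6 of 20 (30%), beside 10.4% of expressed genes. These were GTF3C2, GTF3C4, GTF3C6, POLR3A, POLR3C and POLR3E. The ETS motif CCGGAAG was in 9 of 20 (45%), beside 19.3%, and the GC box GGGCGG in 13 of 20 (65%), beside 71.5%. The CCAAT box was in 6 of 20, beside 37.2% and the TATA box TATAAA in 1, beside 5.11%. Both strands were searched, and each motif was counted whether or not its match overlapped another. The core of the TFIIIC B box, GTTCGANNC, was in the windows of POLR3E and POLR3K, 10% beside 1.07% of expressed genes. These matches are shown in capitals on the gene's strand because the B box is the element the machinery itself reads, for POLR3E at chr16:22297191-22297219 and for POLR3K at chr16:53578-53606 of GRCh38.p14.
POLR3E: gggggcgtggGTTCGAATCccaccgctgc
POLR3K: agcctgcggaGTTCGAGACcatgctgctg
The POLR3E match begins 208 bases before the annotated start of the gene, and the POLR3K match begins 12 bases after it. A match in letters does not by itself show binding. By ChIP-seq the study did find ZSCAN5B at POLR3E in HEK-293 cells, at a repeat element downstream of the promoter, away from this match. Most ZSCAN5B peaks it found in those cells lay over transfer RNA genes, which hold B boxes. Whether either match lies in such a gene or under a peak was not checked. POLR3K was above the control in all siRNA libraries, and POLR3E was above it with si1 alone.

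Some rows may hold reads of other genes. Loci of GTF3A, BRF1, BRF2, GTF3C2, GTF3C4 and SNAPC5 overlap rows of other genes expressed in the control, such as MAP2K1 for SNAPC5. Annotated pseudogenes carry the names of POLR3D, POLR3G, POLR3K, GTF3A, BDP1, GTF3C6, SNAPC5 and MAF1. The sources used here do not say how shared reads were counted, so the values of these genes are uncertain by an unknown amount.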

How the data were processed

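RNA of siRNA-treated HEK-293 cells was sequenced in 4 libraries. Per the labels and the study's methods, the authors aligned reads to hg19 with TopHat2 2.1.0 after CASAVA 1.8.2 and Trimmomatic 0.30, computed FPKM values with Cufflinks 2.2.1, and deposited 1 table of FPKM with a column per library. FPKM depends on the transcript models, whose release is not given in the sources used here, nor is the strand setting. The table holds 0 other columns of per-sample values.

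Values were used as deposited. The mean of si4 and si5, and si1, were each compared with the control at a limit of 1.5-fold. Rows had to reach 1 FPKM in 1 or more of the libraries compared, with neither the control nor the compared value at 0. For si4 and si5 the compared value was their mean, so a row with 0 in only si4 or si5 was kept. The study states the 1 FPKM and 1.5-fold rule for ZSCAN5B, while its ZSCAN5A test was made in the Cufflinks suite with adjusted p-values and was not repeated here. Leaving out values of 0 was a choice made here. For si4 and si5, limma 3.58.1 in R 4.3.3 was also run on log2(FPKM + 1) with Benjamini-Hochberg adjustment. It assumes that the lone control varies as si4 and si5 do, and its p-values cover the spread between siRNAs, not between cultures. The si1 comparison has 1 library a side and no test.

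Depth came from rows under 0.1 FPKM, of which 74.5% of 1644 were whole multiples of 1 fragment within 0.05%. Counting intervals are exact binomial 95% intervals from approximate fragments and cover counting error only. Length, GC content and 3′ untranslated regions came from canonical GENCODE transcripts on GRCh37, matched for 95.7% of expressed rows. Table starts count from 0, and 1 was added. siRNA sequences came from the study's supplement. Methods were tested on simulated data with Python 3.11.15, NumPy 2.4.6, pandas 2.3.3 and SciPy 1.17.1, and figures used matplotlib 3.10.9.

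The members, gene lists and tests were chosen with earlier results of these data known. Of the 27 members, 1 is not reported here on its own and enters only counts and medians. The other members are named. Of these, the highest and lowest levels and the 5 largest rises and falls in each comparison are given in full. The pairs POLR3G with POLR3GL and BRF1 with BRF2 are also given in full. So is any gene past the limit among the listed subunits, partners, regulators and transcripts. Alternatives were other scalings, pseudocounts and limits, summed rows, a subtraction of the median log2 ratio in 10 classes of length by 5 of GC content, and each ZSCAN5A siRNA alone. Part of these, for complexes and comparison sets, was chosen after seeing the data.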

Additional observations from a re-analysis of the deposited data

Results flagged for a closer look

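In 2 genes both ZSCAN5A siRNAs lay on one side of the control and si1 on the other. POLR3E was below the control with si4 and si5 and above it with si1, and the log2 ratio of the mean of si4 and si5 to si1 was -0.21. GTF3C5 was above the control with si4 and si5 and below it with si1, and the same ratio was 0.089. With 1 library per siRNA these differences were not tested. All 3 counting intervals of GTF3C5 against the control included 0, as did that of si5 for POLR3E. After the median log2 ratio of genes of like length and GC content was subtracted, POLR3E was above the control in both comparisons, with 0.05 for the mean of si4 and si5 and 0.24 for si1, while GTF3C5 had 0.02 and -0.06.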

How the results depend on the processing

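No paired analysis was possible because each treatment had 1 library and the labels record no pairing. The count of genes past 1.5-fold was 0 with each scaling, pseudocount and expression limit, with summed rows, without either ZSCAN5A library and after the length and GC subtraction. Some of these could not have raised it. No gene shares its symbol with another row, all were above 1 FPKM, and a pseudocount only draws ratios toward 0. In limma, adding si1 as its own arm could not change the fit for the ZSCAN5A siRNAs, since an arm of 1 library adds nothing to the residual spread. With a limit of 25% above the control or the same factor below, the counts were 1 for the ZSCAN5A siRNAs and 2 for si1. The median log2 ratio for the ZSCAN5A siRNAs was 0.07 to 0.09 with either siRNA alone. With median-ratio scaling it was 0.10, and for SNAPc 0.10, with 0.15 for SNAPc with si1. Upper-quartile scaling gave 0.12 for all genes, 0.13 for the polymerase and 0.12 for SNAPc, and 0.15 for SNAPc with si1. A pseudocount of 1 FPKM gave 0.11 with si1. The subtraction of length and GC effects gave, for the ZSCAN5A siRNAs, 0.14 for all 27 genes, 0.18 for the polymerase, 0.16 for TFIIIB and 0.049 for SNAPc, and with si1 0.11 for all, 0.10 for TFIIIC and 0.084 for SNAPc. It left 1 gene below the control in all siRNA libraries instead of 2. For the comparison sets it gave 0.29 for polymerase I, 0.036 and -0.012 for polymerase II, 0.090 and 0.17 for shared subunits, and -0.10 and -0.072 for regulators. It turned the sign of 15 of 54 single-gene ratios, beside 3 of 54 under each scaling. The causes were not tested. Depth limits SNAPC2 most, and with 1 control library no alternative removes an error in that library.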
